A study of Mus musculus with 10 samples.

Results

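The genes described here encode the tubulins, the stathmins and the proteins that bind, fold or cap microtubules. Members were the entries of the deposited gene table whose symbol matched a pattern for 1 of 9 families and whose base mean was at least 10. The families were alpha-tubulins, beta-tubulins, gamma-tubulins, tubulin cofactors, stathmins, structural microtubule-associated proteins or MAPs, end-binding proteins, the TPPP family and the CRMP family. Family genes whose symbol has another form were not matched. The symbols matched 49 of the 25232 genes in the table, and 43 of the 49 reached that base mean. The table comes from RNA-seq of the spinal cord of 10 female mice of 90 days of the strain C57BL/6 by the labels (C57BL/6J in the methods), 5 wild type (WT) and 5 *SOD1 G93A*. The *SOD1 G93A* mice carry many copies of a human *SOD1* transgene with a mutation found in familial amyotrophic lateral sclerosis, and WT littermates served as controls. The tissue was lumbar according to the methods, a detail that the sample labels leave out. The base mean is the authors' mean, over all 10 libraries and both genotypes together, of read counts divided by a size factor for each library. It gives 1 pooled level for each gene. The columns of the authors' own comparison of the genotypes were not used, and no level is given here for a single mouse or a single genotype. No spread between mice, depth per library or test between genotypes can therefore be given for any gene, and the levels are a description.

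Microtubules are hollow polymers of alpha- and beta-tubulin dimers, and axons depend on them for their shape and for the transport of cargo over long distances. Alpha- and beta-tubulin are each encoded by several genes, known as isotypes, whose proteins are nearly alike and differ mostly in the tail at the carboxyl end. Gamma-tubulin starts new polymers, the cofactors fold and join the dimer, stathmins hold free dimers, and MAPs stabilise the polymer or link it to other structures. Motor neurons have some of the longest axons of the body, and myelinating oligodendrocytes also rely on microtubules in their processes.

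The near identity of some isotypes bears on the values of several alpha- and beta-tubulins, because the authors counted only reads that map to 1 place. *Tuba1a* and *Tuba1b* lie next to each other on the minus strand of chromosome 15 in GRCm38, the build that mm10 denotes, 15271 bases apart. Their coding sequences, 1353 bases each without the stop codon, differed at 23 positions and were 98.3% identical. The longest run without a difference was 281 bases, longer than a read of 100 bases, so a read from within it could belong to either gene.

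*Tubb2a* and *Tubb2b* form the same kind of pair among the beta-tubulins, on the minus strand of chromosome 13 with 48740 bases between them. Their coding sequences of 1335 bases differed at 47 positions (96.5% identity). The end of the coding sequence, which encodes the isotype tail, is shown for this pair because isotypes usually differ there. The last 90 coding bases are at chr13:34074471-34074560 for *Tubb2a* and chr13:34127474-34127563 for *Tubb2b*, in an exon on the minus strand, with capitals at the positions at which the pair differs.
Tubb2a: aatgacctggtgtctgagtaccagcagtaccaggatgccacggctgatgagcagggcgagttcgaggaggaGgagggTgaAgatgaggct
Tubb2b: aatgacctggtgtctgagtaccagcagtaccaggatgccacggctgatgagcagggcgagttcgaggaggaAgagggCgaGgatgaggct
The last 90 bases held 3 of the 47 differences, and the longest identical run was 551 bases. Read in frame, each of the 3 leaves the amino acid unchanged, so the pair encodes the same tail over this stretch. Outside the 2 pairs just described, *Tuba1c* was 98.4% identical to *Tuba1b* and 97.6% identical to *Tuba1a* over the aligned coding bases. All other pairs of beta-tubulin coding sequences were between 81.1% and 86.6% identical. The gamma-tubulin pair was 93.3% identical, and the stathmins between 70.2% and 74.5%.

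How much sequence is shared was measured over all windows of 100 bases in each gene's annotated transcripts. A window counted as shared when any other gene annotated in GENCODE M21, on either strand, held the same 100 bases. Of the 43 genes, 31 had 0 windows in common with a gene elsewhere in the genome. The share was 61.7% for *Tuba1b*, 50.0% for *Tuba1a*, 46.0% for *Tuba1c*, 36.9% for *Tubb2a*, 26.0% for *Tubb2b*, 21.0% for *Tubb4b* and 12.8% for *Stmn1*. *Tubb4a*, *Tubb3*, *Tubb5* and *Tubb6* had 0 shared windows. *Tuba1a* shared windows with 12 genes elsewhere and *Tuba1b* with 12, several of them processed pseudogenes, which are intronless copies such as *Gm3226* and *Gm14150*. *Tubb4b* shared 19.7% of its windows with the processed pseudogene *Tubb4b-ps1*. The gene table has no entry under the symbols of these 3 pseudogenes. The levels of the genes with shared windows are therefore uncertain, since the reads of such windows were left out unless the second read of the pair placed them.

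**Figure D1:**
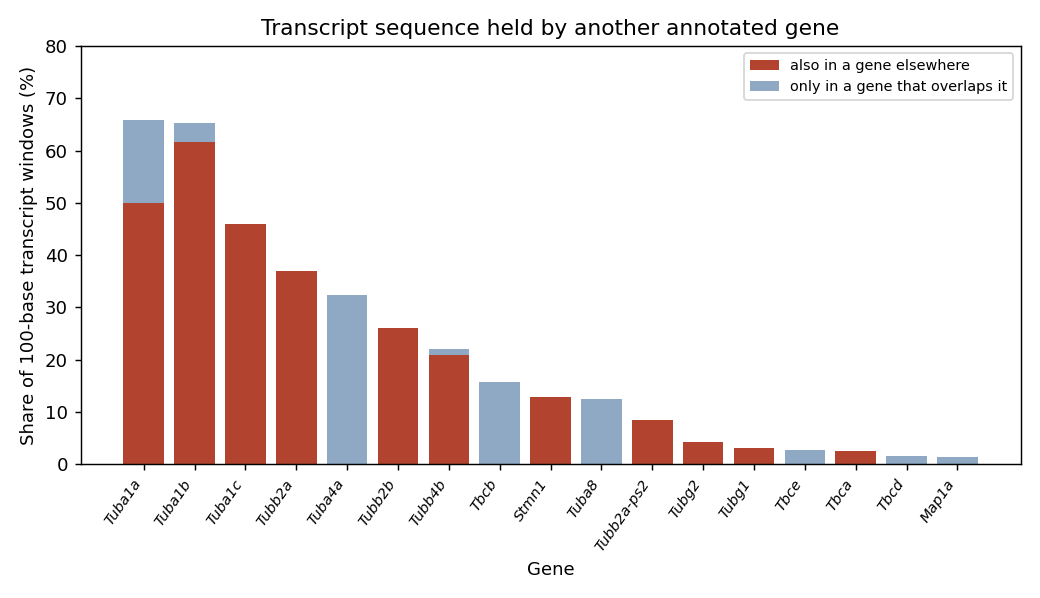
Each bar gives the share of a gene's 100-base transcript windows (vertical axis, percent) that another annotated gene also holds, for the members with a share above 1%. Red is sequence held by a gene elsewhere in the genome and blue is sequence held only by a gene that overlaps the member. *Tuba1b* has the largest red part, 61.7%, and the bar of *Tuba4a* is blue only, at 32.4%.

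A second kind of sharing comes from genes that overlap on the chromosome. *Tuba4a* (chromosome 1, 75214228 to 75219865, minus strand) overlaps *Stk16*, a kinase gene on the plus strand, over 32.4% of its windows. *Gm49450*, annotated as protein-coding on the same minus strand, overlaps both *Tuba1a* and *Tuba1b* and holds 31.2% and 28.8% of their windows. For 15.8% of the windows of *Tuba1a* and 3.48% of those of *Tuba1b*, it is the sole gene that shares them. The gene table has no entry under the symbol *Gm49450*, and strand cannot separate reads of that gene from those of the tubulins. *Tbcb* shared 15.7% of its windows with the overlapping *Polr2i*, and *Tuba8* shared 12.5% with the antisense gene *Gm15856*. The libraries keep the strand, but the gene annotation and the strand setting of the counting are not given in the sources used here, so whether overlapping reads were split, dropped or counted for these genes cannot be told.

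All 43 genes had a length in the annotation, and levels are compared between genes per kilobase (kb) of exons, with overlapping exons of all transcripts merged. The 43 genes ran from 14.6 to 16649 normalized counts per kb, with a median of 1122. Over the 15596 genes of the table that reached the same base mean and had a length, the median was 117. Among the 20358 genes with a length and a base mean above 0, 4 of the 43 ranked in the first 100 per kb and 19 in the first 500. A base mean of at least 1000 was found for 33 of the 43 (76.7%), and for 33.1% of the 15918 genes of the table that reached 10. The 43 base means summed to 365418 normalized counts, 1.65% of the sum over the table. In the order of the 43 genes by level per kb, 22 of the 42 steps from a gene to the next were smaller than 1.1-fold, and without a spread between mice it cannot be said which neighbours differ.

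**Figure D2:**
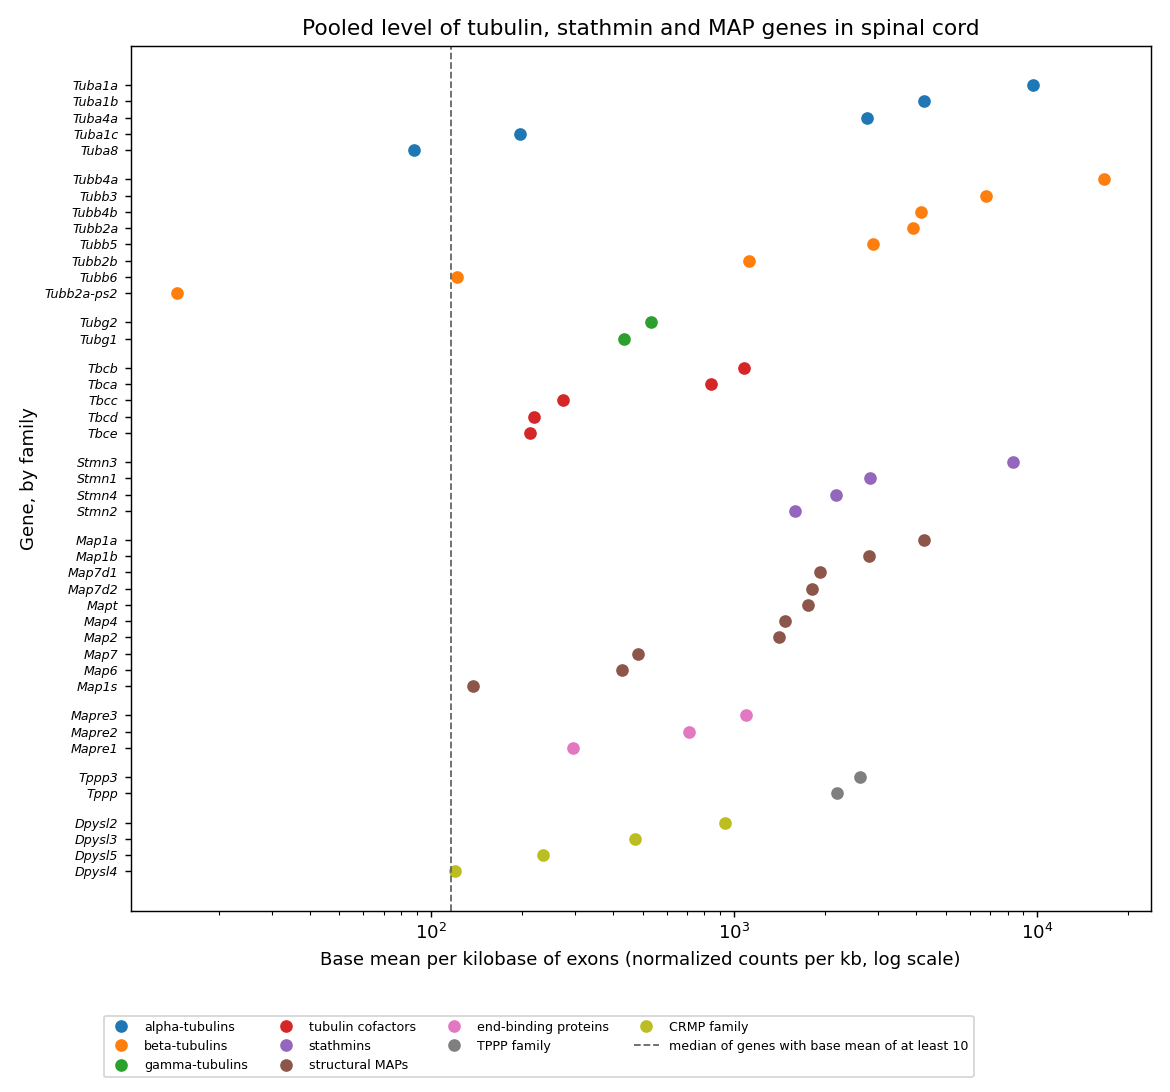
Each point is 1 of the 43 genes, placed by its base mean per kilobase of exons on a log scale (normalized counts per kb, the authors' mean over all 10 libraries) and grouped by family. The dashed line is the median of 117 over all genes that reached a base mean of 10. *Tubb4a* is farthest to the right at 16649, and *Tuba8* and *Tubb2a-ps2* are left of the dashed line.

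Per kb of merged exons, a beta-tubulin held the highest level of the 43 genes. By base mean *Map1a* was first, and per kb of exon sequence not shared elsewhere *Tuba1a* was, at 19342 against 16649 for *Tubb4a*. The latter measure divides the whole base mean, with any reads of shared windows that a mate placed, by the unshared length. It can therefore be too high for genes with many shared windows. *Tubb4a*, an isotype of brain and of myelinating cells whose human counterpart is mutated in a hypomyelinating disease, had a base mean of 37094 and 16649 normalized counts per kb, number 5 of the ranked genes. It lies on chromosome 17 from 57080066 to 57087782. *Tubb3*, an isotype long used to mark neurons, followed at 6802 per kb (base mean 12706). *Tubb4a* was thus 2.45 times *Tubb3* per kb and 4.02 times *Tubb4b*, an isotype found in many tissues. *Tubb4b* stood at 4146 per kb, *Tubb2a* at 3902 and *Tubb5* (a widely expressed isotype) at 2886. *Tubb4a* and *Tubb3*, first and second of the family under all 5 lengths tried, are free of shared windows. The third place of *Tubb4b* held for merged exons and the longest transcript alone. *Tubb5* took that place by base mean (9603 against 8658) and per kb of coding length (7209 against 6485). *Tubb2a* took it per kb of exon sequence not shared elsewhere (6187 against 5247).

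*Tubb2b*, which is prominent in developing cortex, had 1122 normalized counts per kb, and *Tubb2a* was 3.48 times as high. With the base mean divided by the exon length that no gene elsewhere shares, the same ratio was 4.08. *Tubb6* was far lower, at 122 per kb. The pseudogene *Tubb2a-ps2*, on chromosome 12 from 11881325 to 11882663, was the lowest of the 43 at 14.6 per kb, with a base mean of 19.6. Because 8.47% of its windows are found in *Tubb2a* or *Tubb2b* as well, its level is uncertain. Just outside the threshold was *Tubb1*, the isotype of platelets, with a base mean of 3.40.

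Among the alpha-tubulins, *Tuba1a* had the highest level. This isotype of neurons, mutated in human lissencephaly, had a base mean of 17436 and 9671 normalized counts per kb, number 31 of the ranked genes, and lies at chr15:98949837-98953703. *Tuba1b*, a widely expressed isotype, had 4234 per kb and *Tuba4a* 2758. The protein of *Tuba4a* lacks the encoded tyrosine at its end, and mutations of the human gene have been linked to amyotrophic lateral sclerosis. *Tuba1a* was 2.28 times *Tuba1b* per kb. *Tuba1c* and *Tuba8* were low, at 198 and 88.3 per kb. The other 2 alpha-tubulin symbols that matched, *Tuba3a* and *Tuba3b*, which are mainly testis genes, had base means of 0.211 and 0.0926.

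*Tuba1a* made up 57.1% of the alpha-tubulins and *Tubb4a* 46.7% of the beta-tubulins per kb of exons. Dividing by other lengths moved these shares to between 48.0% and 57.5% for *Tuba1a* and between 42.2% and 48.2% for *Tubb4a*, and both remained first. The share of *Tuba4a*, 16.3% of the alpha-tubulins per kb of exons, ran from 8.20% to 28.3% over the same lengths, and that of *Tuba1b*, 25.0% per kb of exons, from 21.9% to 32.9%. The summed level of the alpha-tubulins was 0.476 times that of the beta-tubulins per kb of merged exons, a ratio in which the reads lost from *Tuba1a*, *Tuba1b*, *Tuba1c*, *Tubb2a*, *Tubb2b* and *Tubb4b* are not restored. With the base mean divided by exon sequence not shared elsewhere the ratio was 0.853, while the other lengths gave 0.464 to 0.480.

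**Figure D3:**
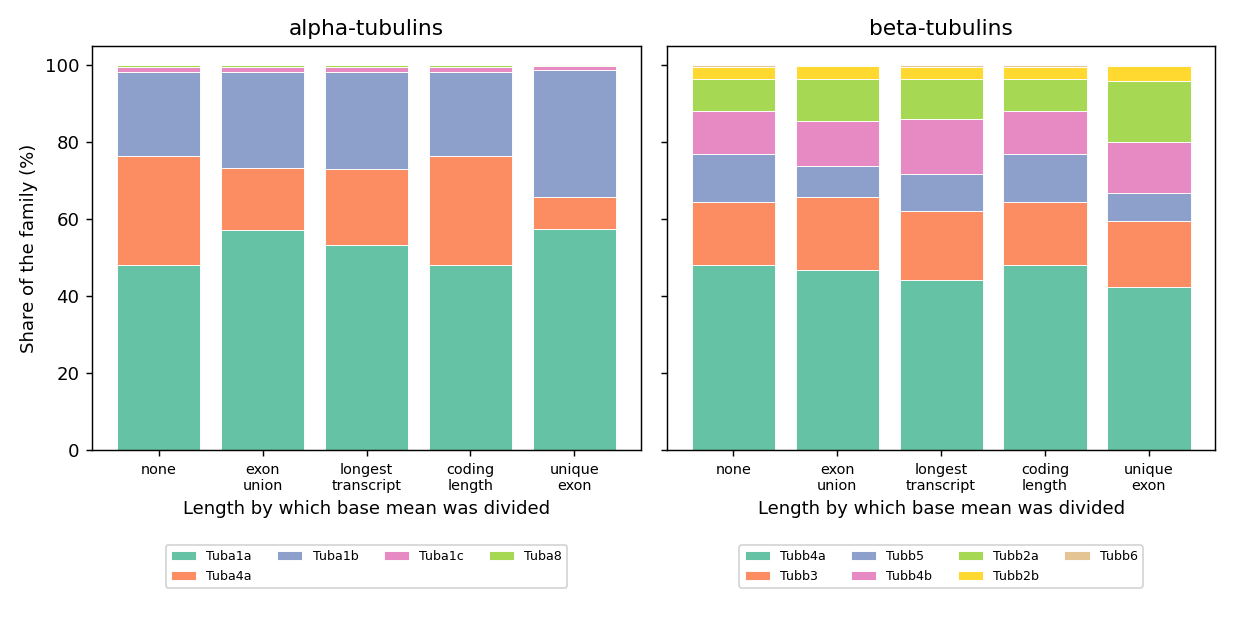
Stacked bars give each isotype's share (vertical axis, percent) of the alpha-tubulins (left) and beta-tubulins (right) when the base mean is divided by nothing, by merged exons, by the longest transcript, by coding length or by exon sequence not shared elsewhere. *Tuba1a* and *Tubb4a*, at the bottom of the bars, are the largest part in all 5 columns; *Tubb2a-ps2*, which has no coding length, is left out.

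The gamma-tubulins and the cofactors, which act in nucleation and in making dimers, were lower. *Tubg1* and *Tubg2*, neighbours on chromosome 11, had base means of 983 and 934, and 434 and 532 normalized counts per kb. Which of the pair is higher changed with the length used. Of the cofactors, *Tbcb*, which takes up alpha-tubulin, stood at 1081 per kb and *Tbca*, which takes up beta-tubulin, at 844. *Tbcc*, *Tbcd* and *Tbce*, which join the dimer, stood lower, at 273, 219 and 213 per kb. With no length correction *Tbcd* had the highest base mean of the cofactors, at 1775 against 1558 for *Tbcb*, and *Tbce*, at 967, was above *Tbca*, at 685. A mutation of *Tbce* causes progressive motor neuronopathy in a mouse strain. The 5 cofactors together held 2.73% of the summed level of the 43 genes per kb, and the alpha- and beta-tubulins 17.6% and 37.0%. With the base mean divided by exon sequence not shared elsewhere the tubulin shares were 28.7% and 33.7%.

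All 4 members of the stathmin family were abundant, with base means from 4166 to 9497. *Stmn3* (SCLIP) had 8360 normalized counts per kb, number 39 of the ranked genes. *Stmn1*, the first stathmin described, had 2824 per kb, *Stmn4* (RB3) 2175 and *Stmn2* (SCG10) 1588. *Stmn2*, a growth cone protein of neurons whose human transcript is misspliced when TDP-43 is lost, lies at chr3:8509360-8561606. Its merged exons, at 5602 bases, were the longest of the family and those of *Stmn3*, at 1136 bases, the shortest. Per kb of coding length *Stmn3* and *Stmn2* were close, at 17586 and 16568. The place of *Stmn2* as the lowest stathmin thus held only for some lengths.

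The structural MAPs took the largest part of the reads of the 9 families. They are long genes, and their 10 members held 48.6% of the summed base mean of the 43 genes but 17.1% of the summed level per kb. *Map1a* had a base mean of 51494, number 13 in the table, and 4233 normalized counts per kb. Its protein is typical of mature neurons, and the gene lies at chr2:121289600-121310832. *Map1b*, the relative that prevails in growing axons, had a base mean of 44100 and 2783 per kb. Per kb of coding length *Map1a* was at 5695 and *Map1b* at 5966, so the order of the pair rested on the length.

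*Map7d1* and *Map7d2*, relatives of *Map7*, which recruits kinesin-1 to microtubules, followed at 1925 and 1811 normalized counts per kb. *Mapt*, the gene of tau, which is most abundant in axons, was at 1763 per kb (base mean 13280, chr11:104231390-104332090). *Map4*, the MAP of most cell types, was at 1474 and *Map2*, the main MAP of dendrites, at 1406. These 5 genes lay within 1.37-fold of each other per kb of merged exons, an order that rested on the length. Per kb of coding length the spread was 2.39-fold, with *Map4* highest at 6613 and *Map7d1* lowest at 2771, and by base mean it was 3.29-fold, from 23127 for *Map2* to 7032 for *Map7d1*. *Map7* was at 482 per kb, *Map6*, which makes microtubules stable in the cold, at 428, and *Map1s* at 138. *Map7d3* had a base mean of 3.27 and fell under the threshold.

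The end-binding proteins track the growing ends of microtubules. *Mapre3* (EB3), the neuronal form, had 1099 normalized counts per kb, *Mapre2* 710 and *Mapre1* (EB1) 295. With no length correction *Mapre2* had the highest base mean of the 3, at 7243, against 3802 for *Mapre3* and 2307 for *Mapre1*. *Mapre2* also led per kb of the longest transcript, at 1799 against 1557 for *Mapre3*, and per kb of coding length, at 7406 against 4510. The first place of *Mapre3* thus held only for merged exons and for exon sequence not shared elsewhere. *Tppp*, a tubulin-polymerising protein of oligodendrocytes, had a base mean of 11165 and 2188 per kb, and *Tppp3* had a base mean of 4803 and 2599 per kb. The related *Tppp2* had a base mean of 0.749. *Tppp* and *Tppp3* changed places when the length did.

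The CRMP family, cytosolic proteins that bind tubulin dimers and act in axon growth, had 4 members in a range of 7.77-fold. Only symbols that start with *Dpysl* were matched, so *Crmp1* was not looked up. *Dpysl2* (CRMP2) had 932 normalized counts per kb, *Dpysl3* (CRMP4) 471, *Dpysl5* (CRMP5) 234 and *Dpysl4* (CRMP3) 120. *Dpysl2* was the highest of the 4 under each of the 5 ways to set the length.

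Genes that modify or regulate microtubules had lower medians per kb than the 43 genes. Genes of the tubulin tyrosine ligase family, not all of which add tyrosine or glutamate, had a median of 92.0 normalized counts per kb over 13 genes. *Ttll7*, a polyglutamylase of beta-tubulin, reached 1152 and *Ttl*, the tyrosine ligase, 298, whereas *Ttll13* and *Ttll10* had 6.52 and 0.695. Genes for the removal of tyrosine or glutamate had a median of 60.0 over the 9 of 10 listed genes found in the table. The highest were *Vash1*, a detyrosinase, at 995 and *Agtpbp1*, whose loss causes Purkinje cell degeneration in mice, at 184. The lowest were *Agbl2* at 8.15 and *Agbl1* at 1.08. Of the acetylation genes, the deacetylase *Sirt2*, abundant in oligodendrocytes, had 1243, the acetyltransferase *Atat1* 305 and the deacetylase *Hdac6* 216.

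Severing enzymes had a median of 86.5 normalized counts per kb over 8 genes, led by *Katnal1* at 357 and *Spast*, the gene most often mutated in hereditary spastic paraplegia, at 170. *Fign* and *Fignl1* had 21.0 and 6.01. The 9 genes of the gamma-tubulin ring complex and its partners had a median of 171, with *Mzt1* at 529 and *Tubgcp2* at 268 as the highest and *Tubgcp5* at 107 and *Nedd1* at 32.7 as the lowest. Other end proteins had a median of 358 over 11 genes, from *Clip2* at 900 and *Slain1* at 814 to *Camsap3* at 130 and *Slain2* at 88.7.

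The doublecortin family and other MAPs had a median of 143 per kb over 11 genes, from *Map6d1* at 543 and *Dclk1* at 503 to *Map10* at 37.6 and *Dcx*, a marker of immature neurons, at 31.7. The list of kinases that act on tau and MAPs, which includes the *Cdk5* activator *Cdk5r1*, had a median of 430 over 11 genes. *Gsk3a* at 1376 and *Cdk5* at 1074 were the highest and *Mapk8* at 167 and *Mark3* at 146 the lowest. The listed tubulins whose symbols the family patterns did not match were low, with *Tubd1* at 63.7, *Tube1* at 14.5 and *Tubal3* at 0.141. The 43 genes had to reach a base mean of 10 and these lists did not, which raises the median of the 43.

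**Figure D4:**
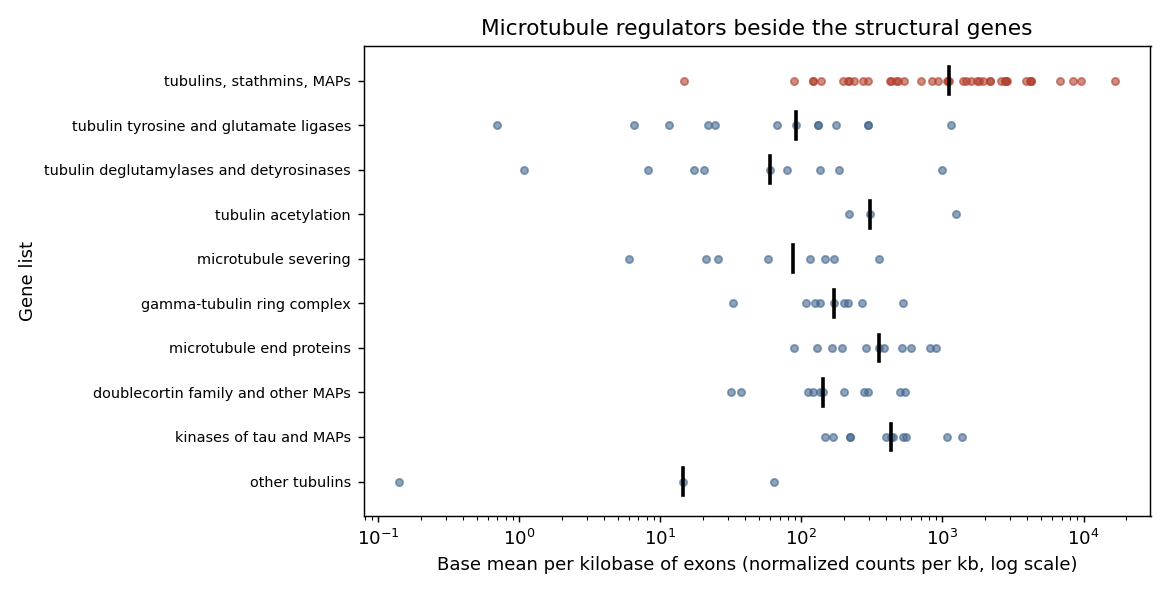
Each point is a gene, placed by its base mean per kilobase of exons (log scale, normalized counts per kb), with the 43 tubulin, stathmin and MAP genes in the top line and the other microtubule gene lists under it. Black bars are medians, 1122 for the top line and between 14.5 and 430 for the others.

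Levels were also read for markers of cell types that the spinal cord and its surroundings hold. No marker of a region of the cord was among them, so the region was not tested. Oligodendrocyte genes ran from 3138 (*Mog*) to 37739 (*Mbp*) normalized counts per kb, astrocyte genes from 431 (*Aldh1l1*) to 13345 (*Gfap*) and neuron genes from 601 (*Rbfox3*) to 14045 (*Nefl*). Motor neuron genes ran from 11.5 (*Isl1*) to 712 (*Prph*), microglia genes from 72.2 (*Aif1*) to 284 (*Cx3cr1*), oligodendrocyte precursor genes from 63.3 (*Cspg4*) to 133 (*Pdgfra*) and endothelial genes from 101 (*Pecam1*) to 501 (*Cldn5*). Schwann cell genes, which mark nerve roots, ran from 86.8 (*Prx*) to 1418 (*Pmp22*), skeletal muscle genes from 33.8 (*Myh4*) to 163 (*Acta1*), and the liver genes were *Alb* at 20.0 and *Apoa2* at 402. In whole tissue these levels sum over all cell types, so a gene's level does not show which cells made it, and fewer cells of a type and less RNA per cell cannot be told apart.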

How the data were processed

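RNA of the spinal cord of 5 WT and 5 *SOD1 G93A* female mice of 90 days was sequenced by the authors in stranded libraries as paired reads of 100 bases. Per the labels and the methods, the authors filtered reads with Fastp, aligned them to mm10 with HISAT2 2.1.0, assigned the uniquely mapped ones to genes with featureCounts 2.0.2 and used DESeq2. The gene annotation is not given in the sources used here. The deposited base mean is a signal value, a mean of normalized counts over all 10 libraries by the authors, not divided by gene length. The 5 deposited columns of the authors' own comparison (log2 fold change, its standard error, Wald statistic, p-value and adjusted p-value) were not used. The table has no column per library, so depth per library is unknown and no test was run.

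Lengths, coordinates and transcripts came from GENCODE M21 (GRCm38), matched by symbol for 24310 of 25232 genes (96.3%). A symbol with more than 1 gene ID was left without a length. The unique exon length was the merged exon length times the share of windows of 100 bases that no transcript of a gene elsewhere holds. The whole base mean was divided by this length, so the result can be too high for genes with many shared windows. No genome sequence was used, and mates were not considered. Coding sequences were aligned with Biopython 1.88 under Python 3.11.15, and matplotlib 3.10.9 drew the figures. The window and length code was tested on simulated data. All members are named. Of the other lists, the highest 2 and lowest 2 genes are named, and of the cell type markers the highest and the lowest. The members and lists were chosen with earlier results of these data known. A few related items are left out and not reported here.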

Additional observations from a re-analysis of the deposited data

How the results depend on the processing

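No paired analysis was possible because the table has no column per library. The number of genes was 43 at a base mean minimum of 10, 45 at 1 and 42 at 100. Their share of the table was 1.65% of the base mean and 1.90% of the level per kb. No symbol in the table starts with mt-, so leaving such genes out could not be tried. The shares of the leading genes all depended on the length. With no length correction they were 48.1% for *Tuba1a*, 48.0% for *Tubb4a*, 48.7% for *Tubg2*, 29.4% for *Tbcb*, 33.9% for *Stmn3*, 29.0% for *Map1a*, 28.5% for *Mapre3*, 30.1% for *Tppp3* and 43.1% for *Dpysl2*. Per kb of the longest transcript they were 53.3%, 44.1%, 49.4%, 32.9%, 43.7%, 18.1%, 42.4%, 61.1% and 46.5% in the same order of genes. Per kb of coding length they were 48.0%, 48.2%, 48.7%, 37.6%, 33.4%, 15.0%, 30.5%, 34.8% and 45.5%. Per kb of exon sequence not shared elsewhere, the shares that moved were 57.5% for *Tuba1a*, 42.2% for *Tubb4a*, 55.3% for *Tubg2*, 40.8% for *Tbcb* and 54.4% for *Stmn3*. The summed alpha-tubulins over the summed beta-tubulins, recomputed in a choice made after seeing the data, came to 0.476 per kb of merged exons, 0.469 with no length correction, 0.480 for the longest transcript, 0.464 for coding length and 0.853 over exon sequence not shared elsewhere. The leading gene was the same under all of these for 4 of 9 families (alpha-tubulins, beta-tubulins, stathmins and the CRMP family). Elsewhere *Tubg1*, *Tbcd*, *Map4*, *Mapre2* or *Tppp* led under at least 1 of them, by construction of the length alone. No spread between mice is known, so a share counts as moved when its first 3 digits change.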
